A study of Sus scrofa with 40 samples.

Results

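Glutathione S-transferases (GSTs) were followed in porcine kidney across warm ischemia and cold storage. The 10 genes asked for were GSTA1, GSTA2 and GSTA4 of the alpha class, GSTT1 (theta), GSTP1 (pi), GSTO1 (omega), GSTM3 (mu), GSTK1 (kappa) and the membrane enzymes MGST1 and MGST3. A row of the arrays was taken as a member where its gene name was one of these symbols, or where its description held the words glutathione S-transferase and the symbol. That rule gave 19 rows of 7 genes. The rule found no row of GSTT1 or GSTP1, so 1 row each with a pig gene number was added, for GSTT1 through a RefSeq synonym and for GSTP1 through the class and number in its description. This was not extended to rows known only by a sequence cluster (TC) name. Of these, 1 is described as theta 1, 1 as kappa 1, 1 as GST P and 1 as pig GST alpha M14, and these are given apart from the members. The members were then 21 probes in 11 transcript identifiers of 9 genes, out of 43603 probes in 35955 identifiers. GSTM3 matched no row and was not analysed here.

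The study followed what 60 min of warm ischemia and the cold storage after it do to gene expression in kidneys of a pig model of donation after circulatory death. Kidneys came from 3-month-old Large White pigs, and control kidneys (Ctl) were frozen directly after removal. WI kidneys were kept clamped for 60 min at 37 °C. WI+CS6h and WI+CS24h kidneys had the same warm ischemia, were flushed with University of Wisconsin solution, an organ preservation fluid, and were stored at 4 °C. Each was sampled in the cortex (C) and at the corticomedullary junction (CMJ), with 5 arrays in each of 8 groups, 40 arrays in all. The 6 h and 24 h samples came from the same 5 kidneys, so 15 kidneys stand behind the arrays. Samples of a group are numbered 1 to 5, and the labels do not state that a number marks 1 kidney in both tissues. The cold-stored kidneys were other kidneys than those of Ctl and WI. All comparisons with a given group also share its 5 arrays.

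GSTs join the tripeptide glutathione to reactive compounds, which makes them more soluble and ready for export. Alpha class enzymes are abundant in proximal tubule cells and also reduce lipid peroxides, and release of alpha GST from the tubule has long been used as a sign of tubular injury. Theta, pi, omega and kappa enzymes differ in their substrates and in where they lie in the cell, the kappa enzyme being found in mitochondria and peroxisomes. MGST1 and MGST3 are membrane proteins of another protein family with the same kind of activity. Conjugates leave the cell through pumps such as ABCC2, and are then trimmed at the cell surface by gamma-glutamyltransferase and peptidases.

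Values are log2 signals after quantile normalization of the 40 arrays, differences are log2 differences, and 1 log2 unit is a doubling. A difference was called where its adjusted p in limma was under 0.05 (Benjamini-Hochberg over all identifiers of the comparison) and its size at least 0.5. Groups were described as apart where every array of one lay above every array of the other. Levels of different probes were not compared. On each array 57.01% to 69.91% of spots passed as well above background, and all 11 member identifiers were well above background on all 40 arrays. The 11 proximal tubule markers found, out of 15 listed, had a mean log2 signal of 13.23 to 13.40 in Ctl-C and 12.94 to 13.51 in cold-stored cortex, and of 12.91 to 13.12 in Ctl-CMJ and 12.77 to 13.56 in cold-stored CMJ. None of them was called lower in a cold-stored group, and 1, SLC22A8, was called higher at 6 h at the CMJ than in Ctl-CMJ. In these pieces of whole tissue, fewer cells of a type and less RNA per cell cannot be told apart.

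The probes of GSTA1 and GSTA2 are shown because these close relatives gave differences of opposite sign between cold-stored and other groups, of which only those of GSTA2 were called, and a probe that read both would blur them. Each line gives the first 30 bases of a 60-base probe, as the array files print it, with no base in capitals.
GSTA1 A_72_P607988: gaagcctcctatggatgcgaaaaaattaga
GSTA2 A_72_P127076: atgaaaaagatgccaaggtggcctcgatca
GSTA2 A_72_P088136: tagcaatgaagtgtttacctaaatgtagat
GSTA2 A_72_P634937: gaagaaaatacgcttgtaatctcttagcct
No run of 20 bases was shared between any of the 21 member probes and any other of the 43603 probes outside the family's own rows. A_72_P127076 and A_72_P088136 make up the GSTA2 identifier NM_213850, and A_72_P634937 is the identifier KP735782. The array's own annotation lists A_72_P127076 for the GSTA1 transcript as well, so its signal may hold both. A_72_P088136 is listed for GSTA2 alone and is the probe used first below, for values by array and their tests. Values given for NM_213850 average it with A_72_P127076 and so may hold GSTA1 signal as well. The files name no genome build, so no coordinates are given. In the gene order of the RefSeq table of Sscrofa11.1, GSTA4 is 4 genes from GSTA1, with an A1-like gene 2 and an A4-like gene 3 genes on, and GSTT1, GSTP1, GSTO1, GSTK1, MGST1 and MGST3 lie on other chromosomes. The GSTA2 accession is not listed in that table, so its place is not given.

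GSTA2 fell in every cold-stored group, and it was the main change of the family. At the corticomedullary junction, GSTA4 fell against WI at both times and against Ctl at 6 h, at the size limit, and GSTT1 fell against WI, by about as much as its differences from Ctl, which were not called. As identifiers, their differences in the cortex were not called, though a single GSTA4 probe was called there against WI. No tissue-by-treatment interaction was called. GSTA1 lay 1.88 to 2.65 log2 units higher in cold-stored groups, with a wide spread between kidneys, and was not called. GSTP1, GSTO1, GSTK1, MGST1 and MGST3 gave no call as identifiers. All members called were lower in the cold-stored group.

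Of the 11 identifiers, 2 were called in WI+CS6h-C against Ctl-C, where 4.02% of all identifiers tested were called, and 2 in WI+CS24h-C against Ctl-C, where 2.5% were. Against WI-C, 2 were called after 6 h (1.93% of all) and 2 after 24 h (1.2%). All of these are the GSTA2 identifiers. At the CMJ, 3 were called after 6 h against Ctl-CMJ (3.19% of all) and 2 after 24 h (3.65%). Against WI-CMJ, 4 were called after 6 h (2.78% of all) and 4 after 24 h (2.85%), namely both GSTA2 identifiers, GSTA4 and GSTT1. The median difference of the 11 identifiers from Ctl was -0.02 in WI+CS6h-C, -0.05 in WI+CS24h-C, -0.19 at the CMJ at 6 h and -0.24 there at 24 h. The medians over all identifiers were 0.05, 0.01, -0.01 and 0.00 in the same order, and 6, 7, 7 and 8 of the 11 members lay below 0. The calls rest on 3 of the 9 genes.

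**Figure D1:**
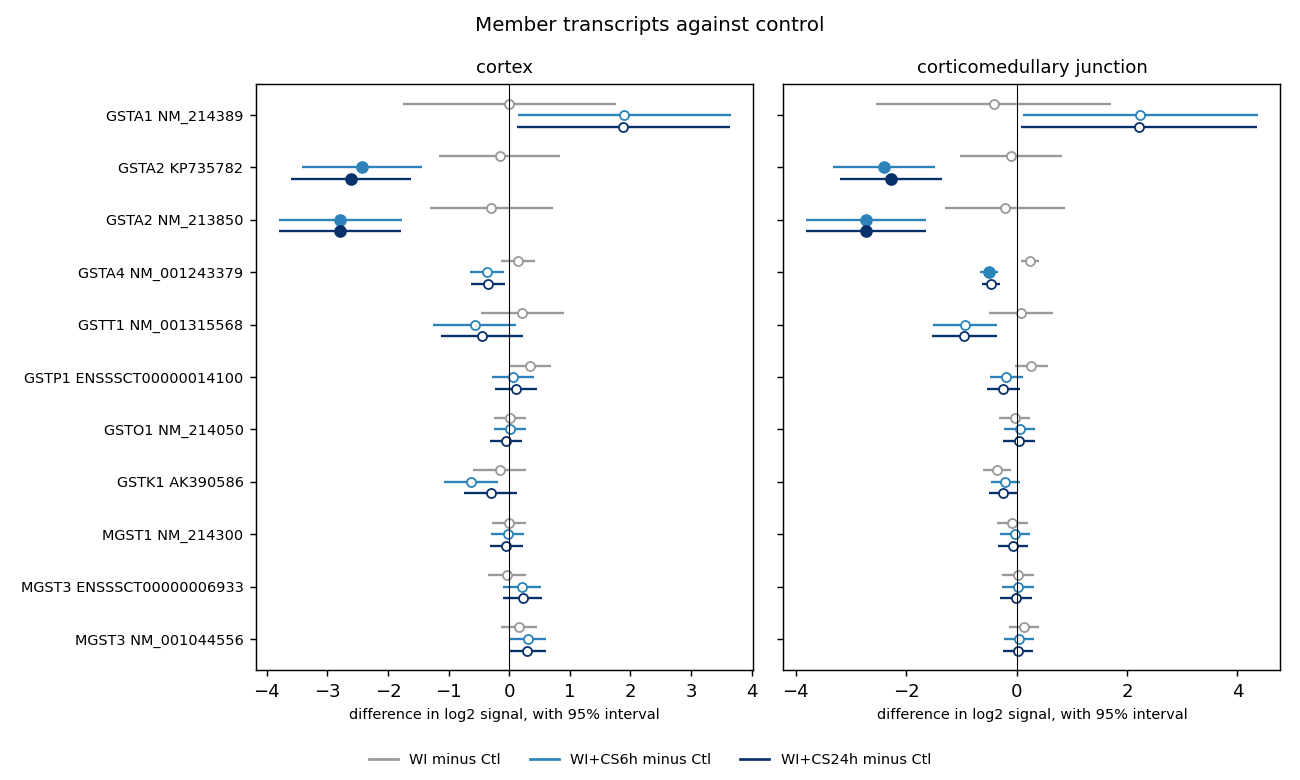
Log2 difference from the control group (x axis) of the 11 member identifiers (y axis) for WI, WI+CS6h and WI+CS24h, with cortex and CMJ in separate panels, lines for the 95% confidence interval and filled points for called differences. The GSTA2 identifiers lie between -2.79 and -2.28 in all 4 cold-stored groups, GSTA1 lies near +2 with wide intervals, and GSTO1, MGST1 and MGST3 lie near 0.

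GSTA2 encodes an alpha class enzyme that conjugates glutathione to electrophiles and reduces lipid peroxides. On A_72_P088136, its log2 signal in Ctl-C was 9.90, 9.99, 9.78, 10.45 and 10.60 in numbers 1 to 5. In WI-C the 5 arrays gave 10.39, 7.86, 9.86, 10.46 and 10.47. After cold storage the cortex gave 8.00, 7.42, 6.73, 6.47 and 7.51 at 6 h, and 7.66, 7.93, 6.25, 7.07 and 7.13 at 24 h. Every cold-stored array lay below every Ctl array, while number 2 of WI stood with the cold-stored arrays and the other 4 WI arrays with Ctl.

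At the corticomedullary junction too, Ctl and WI had higher means than the cold-stored groups on this GSTA2 probe. Ctl-CMJ arrays gave 10.17, 10.08, 10.14, 9.71 and 10.12, and WI-CMJ arrays 10.40, 7.45, 10.17, 10.45 and 10.25. Cold-stored CMJ gave 7.77, 7.81, 6.49, 6.28 and 7.15 at 6 h, and 7.59, 8.04, 6.48, 6.55 and 6.98 at 24 h. Number 2 was again the low array of WI, and no cold-stored array reached the lowest Ctl array.

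Against Ctl, the GSTA2 probe fell in the cortex, with differences of -2.92 at 6 h and -2.94 at 24 h (SE 0.44, adjusted p in limma 0.00101 and 0.000978), a fold of 7.56 and 7.66. At the CMJ it fell with differences of -2.95 and -2.92 (SE 0.49, adjusted p in limma 0.00155 and 0.00162), a fold of 7.71 and 7.56. Single probes were called in 4.45% and 2.9% of cases in the cortex comparisons and in 3.33% and 3.7% at the CMJ. Against WI, the falls were 5.98-fold and 6.06-fold in the cortex (adjusted p in limma 0.00369 and 0.00386), and 6.26-fold and 6.13-fold at the CMJ (0.00391 and 0.00418). In these, 2.44%, 1.68%, 3.28% and 3.34% of single probes were called. The WI comparisons hold the low number 2, so the groups overlapped there. With number 2 of WI left out in both tissues, NM_213850 differed from WI by -3.10 to -2.99 in the cold-stored groups. In fits of the 2 groups alone, the calls of both GSTA2 identifiers against WI were lost (adjusted p in limma 0.0592 to 0.131). With slide as a fixed term, the calls at 24 h against Ctl were lost (0.0612 to 0.200), as were those against WI other than in WI+CS24h-CMJ (0.0505 to 0.240), and with slide as a random block all 8 held for both identifiers.

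The other GSTA2 probes showed the same pattern. A_72_P634937 (KP735782) gave 7.77, 8.12, 7.54, 8.56 and 8.94 in Ctl-C against 6.46, 5.77, 5.51, 4.93 and 6.12 in WI+CS6h-C, and differed by -2.61 to -2.18 over the 8 comparisons of a cold-stored group with Ctl or WI. Its adjusted p in limma ran from 0.00341 to 0.0127 in the fit of single probes, so that all 8 were called. In the fit of identifiers, with normexp background correction in place of the processed signal, the differences of KP735782 shrank to -1.13 to -0.91, all still called. A_72_P127076, the probe listed for GSTA1 as well, gave differences of -2.65 to -2.38. Over the 40 arrays, the 2 GSTA2 identifiers had a Pearson r of 0.99, a description of arrays that share kidneys and slides.

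GSTA2 was not called between WI and Ctl, and the intervals are wide. NM_213850 differed by -0.29 in the cortex and -0.21 at the CMJ, with 95% intervals that run from -1.30 to 0.88. From 6 h to 24 h of storage it differed by -0.0077 in the cortex and -0.0034 at the CMJ, with intervals within -1.09 to 1.08. The fit did not pair the storage times of a kidney, so these intervals hold the spread between kidneys. The CMJ and the cortex differed in their response by 0.06 to 0.08 in the interaction terms, none of them called. In order of level the 8 groups thus fall into Ctl and WI above and the cold-stored groups below, and neighbours inside each set were not called apart.

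**Figure D2:**
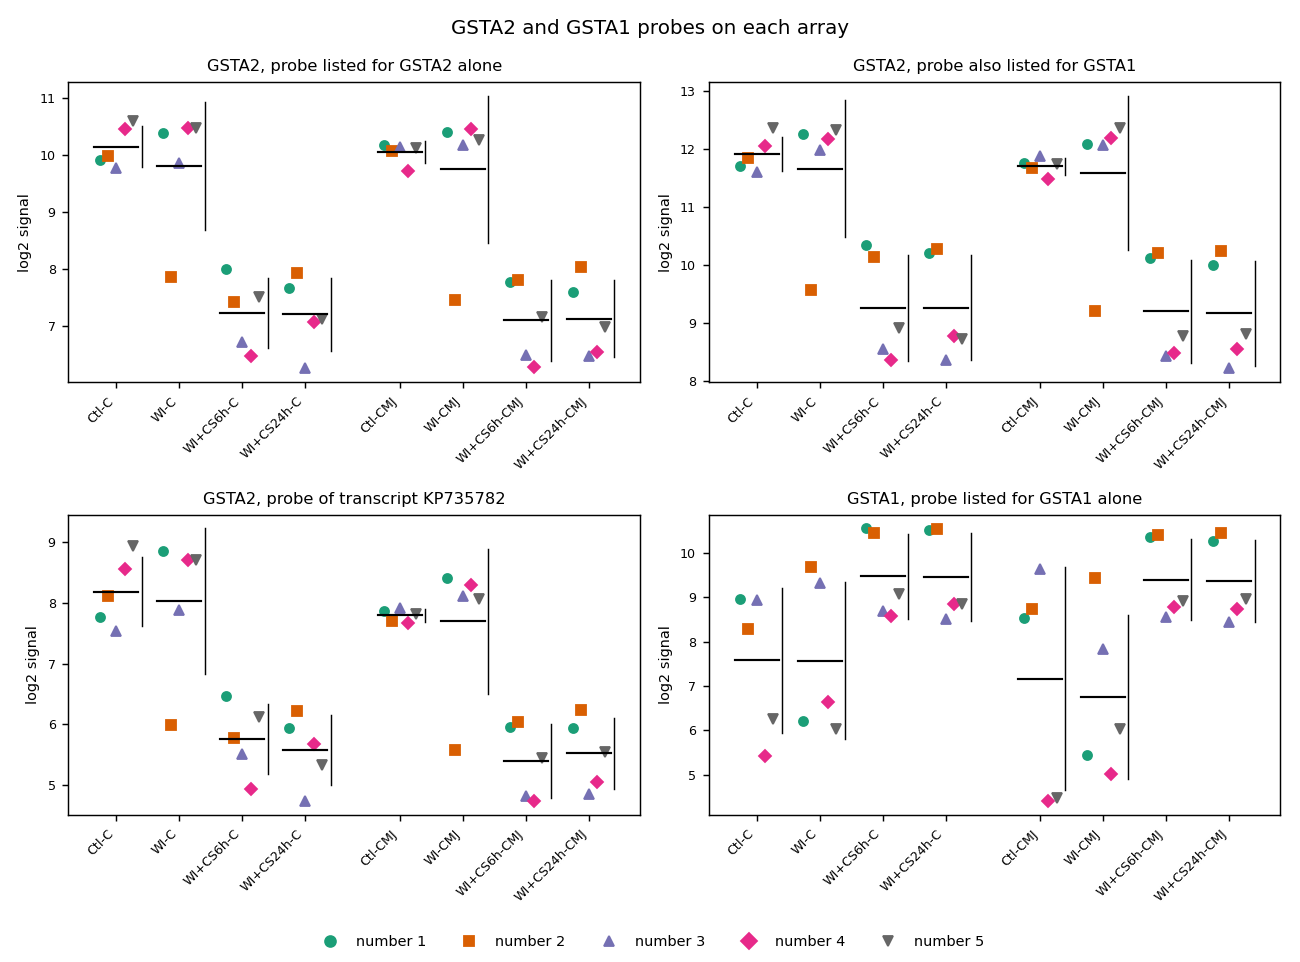
Log2 signal (y axis) of the GSTA1 probe and the 3 GSTA2 probes on each array, by group (x axis), with symbols for the sample number and black lines for the group mean with bars of 1 SD. GSTA2 probes are low in the cold-stored groups and in number 2 of WI, and GSTA1 runs from 4.40 to 9.65 among the Ctl-CMJ arrays.

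GSTA1 encodes the closest relative of GSTA2 among the members, and its level varied widely between kidneys of a group. Ctl-C arrays gave 8.97, 8.29, 8.94, 5.42 and 6.26, and WI-C arrays 6.22, 9.68, 9.32, 6.63 and 6.03. Cold-stored cortex gave 10.56, 10.46, 8.70, 8.58 and 9.08 at 6 h, and 10.52, 10.55, 8.50, 8.86 and 8.85 at 24 h. Some Ctl and WI kidneys were thus as high as cold-stored ones, others far lower, and all 10 cold-stored cortex arrays read at least 8.50.

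At the CMJ, GSTA1 read 8.54, 8.75, 9.65, 4.40 and 4.47 in Ctl and 5.45, 9.43, 7.84, 5.01 and 6.03 in WI. It read 10.37, 10.41, 8.55, 8.78 and 8.92 at 6 h and 10.29, 10.45, 8.44, 8.75 and 8.96 at 24 h. The arrays low in one tissue carried the same numbers in the other, 4 and 5 in Ctl and 1, 4 and 5 in WI. The groups overlapped in all 8 comparisons of a cold-stored group with Ctl or WI.

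The GSTA1 differences of the cold-stored groups were +1.88 to +2.65, with an SE of 0.84 in the cortex and 1.01 at the CMJ. The adjusted p in limma was 0.174 to 0.386, and none was called. The 95% intervals ran from 0.08 to 4.78. With slide as a fixed term, WI+CS6h-C against Ctl-C was called, at +2.44 (adjusted p in limma 0.0421). In number 2 of WI, where GSTA2 was low, GSTA1 was the highest of the 5 WI arrays in both tissues, at 9.68 and 9.43. Over the 40 arrays GSTA1 had a Pearson r of -0.56 and -0.61 with the GSTA2 identifiers, again only as a description.

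Among cold-stored arrays, the GSTA1 and GSTA2 probes followed the sample number. Each number there has 4 arrays, from 2 tissues and 2 times. The GSTA1 means of numbers 1 to 5 were 10.43, 10.47, 8.55, 8.74 and 8.95, and the 4 arrays of a number lay within 0.274 of each other against 1.92 between numbers. The means of A_72_P127076 were 10.17, 10.21, 8.39, 8.54 and 8.81, within 0.411 against 1.82. Those of A_72_P088136 were 7.75, 7.80, 6.49, 6.59 and 7.19, within 0.789 against 1.31, and those of A_72_P634937 were 6.07, 6.06, 4.98, 5.10 and 5.61, within 0.940 against 1.10. On all 4 probes the means of numbers 1 and 2 were highest and that of number 3 lowest. A_72_P127076 is listed for GSTA1 as well, so it is no separate reading of GSTA2. Its range between numbers (1.82) was nearer that of the GSTA1 probe (1.92) than that of A_72_P088136 (1.31). The part of GSTA1 in its signal was not tested. The pattern was neither general in the alpha class nor particular to it: the 2 GSTA4 probes varied by up to 0.436 within a number against at most 0.192 between numbers, and over all members the range between numbers was the larger on 16 of 21 probes. Numbers 1 and 2 also stood apart in hemoglobin beta (HBB), 1 of the 2 erythrocyte markers found out of 5 listed. HBB was not well above background on any of the 8 cold-stored arrays of numbers 1 and 2 (log2 signal 0.07 to 1.52) and was on 11 of the 12 of numbers 3 to 5 (1.72 to 5.82). The other marker, SLC25A37, overlapped between these arrays (15.28 to 15.90 and 14.92 to 15.87). The part of HBB in the GST values was not tested.

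GSTA4 encodes an alpha class enzyme that conjugates 4-hydroxynonenal, a product of lipid peroxidation. Its identifier is read by 2 probes whose overlapping stretches are shown because they differ by 1 base, in capitals, that is present only in the second.
GSTA4 A_72_P605968: tacaattaagaaattcctgaacctggcagc
GSTA4 A_72_P210752: tacaattaagaaattccTtgaacctggcag
The probes align over 52 positions with 51 identical, 0 mismatches and 1 gap. Ctl-CMJ arrays gave a GSTA4 log2 signal of 8.19, 8.14, 8.13, 8.14 and 8.33, and WI-CMJ arrays 8.38, 8.52, 8.26, 8.46 and 8.49. Cold-stored CMJ gave 7.58, 7.78, 7.75, 7.71 and 7.58 at 6 h, and 7.81, 7.68, 7.92, 7.55 and 7.62 at 24 h. All 10 cold-stored arrays lay below all 10 others.

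At the CMJ, GSTA4 fell against Ctl by 0.50 at 6 h, a fold of 1.42 (SE 0.08, adjusted p in limma 0.00095). At 24 h the difference was -0.47 (adjusted p in limma 0.00167), just under the size asked for a call, and it was called with slide as a fixed term, at -0.54 (0.0244). Against WI it fell by 0.74 and by 0.71, a fold of 1.67 and 1.63 (adjusted p in limma 3.74e-05 and 6.51e-05). The 6 h call against Ctl-CMJ sat at the size limit, and it was lost on leaving out number 5 of Ctl-CMJ, or number 1 or 5 of WI+CS6h-CMJ. In the cortex, Ctl arrays gave 7.84, 7.95, 7.89, 8.12 and 8.26 and WI arrays 8.06, 8.70, 7.96, 7.94 and 8.17. Cold-stored cortex gave 7.85, 7.65, 7.64, 7.39 and 7.71 at 6 h and 7.85, 7.65, 7.58, 7.75 and 7.47 at 24 h, below every WI array but overlapping Ctl by number 1. None of the cortex differences of the identifier was called: they were -0.36 and -0.35 against Ctl (adjusted p in limma 0.13 and 0.19) and -0.51 and -0.50 against WI (0.0532 and 0.0741). The 6 h difference from WI-C was called with slide as a random block and with a filter on dim identifiers (adjusted p 0.0465 and 0.0404). Taken singly, A_72_P605968 was called in 5 of the 8 comparisons (-0.84 to -0.39) and A_72_P210752 in 2 (-0.65 to -0.31). The calls of A_72_P605968 included both cold-stored cortex groups against WI-C, with means of 7.30 and 7.31 against 7.89. Those of A_72_P210752 were both against WI-CMJ.

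GSTT1 encodes a theta class enzyme that acts on small halogenated compounds. At the CMJ its log2 signal was 9.43, 9.03, 9.34, 9.25 and 9.67 in Ctl and 9.48, 9.23, 9.16, 9.84 and 9.43 in WI. Cold-stored CMJ gave 8.83, 8.81, 8.50, 8.35 and 7.54 at 6 h and 8.74, 8.96, 8.86, 8.04 and 7.39 at 24 h. Every cold-stored CMJ array lay below every Ctl and WI array, and number 5 was the lowest at both times. GSTT1 differed from WI-CMJ by -1.02 at 6 h and -1.03 at 24 h (SE 0.28, adjusted p in limma 0.0475 and 0.0444), a fold of 2.03 and 2.04, and both were called. From Ctl-CMJ it differed by -0.94 and -0.95 (0.0669 and 0.0583), not called. WI-CMJ and Ctl-CMJ themselves differed by 0.08 (95% interval -0.50 to 0.67). Both comparisons with Ctl-CMJ were called with normexp, the deposited matrix, slide as a random block or a filter on dim identifiers (adjusted p 0.0325 to 0.0466). The calls against WI-CMJ sat near the threshold: the 6 h call was lost on leaving out any 1 of the 10 arrays compared, with an adjusted p up to 0.340 over all alternatives, and the 24 h call on leaving out 8 of the 10. The differences themselves stayed at -1.13 to -0.75 at 6 h and -1.17 to -0.74 at 24 h over the alternatives. Among markers of other cells, AQP3 of the collecting duct was also called lower against WI-CMJ (-0.88 at both times) and SCNN1G of the same list higher (+0.79 and +0.97), and their part in the GST values was not tested.

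In the cortex the GSTT1 groups overlapped. Ctl-C arrays gave 8.50, 8.48, 8.58, 8.64 and 9.34, and WI-C arrays 8.85, 8.77, 8.99, 9.03 and 9.01. Cold-stored cortex gave 8.94, 8.55, 8.07, 7.81 and 7.33 at 6 h, and 9.06, 8.95, 7.83, 8.24 and 7.21 at 24 h. Number 1 stayed at the WI level and number 5 was far below it, and the means of the 4 cold-stored arrays of a number ran from 7.37 in number 5 to 8.89 in number 1. Differences from WI-C were -0.79 and -0.67 (adjusted p in limma 0.245 and 0.448), not called. All 3 interaction terms, CMJ minus cortex, were negative (-0.50 to -0.14), and none was called (adjusted p in limma at least 0.881).

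GSTP1 encodes the pi class enzyme, found mainly in distal tubule and collecting duct cells of the kidney. Its log2 signal was 11.58, 11.68, 11.69, 11.76 and 12.06 in Ctl-C and 11.83, 12.34, 12.20, 12.15 and 11.99 in WI-C. That difference, +0.35, had an unadjusted p of 0.0499 in limma and an adjusted p of 1.00. At the CMJ, WI+CS24h arrays gave 11.50, 11.70, 12.07, 11.98 and 11.75 and all lay below the WI arrays, which spanned 12.16 to 12.53. The difference was -0.50 with an adjusted p in limma of 0.0566, and -0.45 at 6 h (0.0905), neither called. The 24 h difference was called with the replicate block, with slide as a random block and with a filter on dim identifiers (adjusted p 0.0368 to 0.0455). Over the 8 comparisons of a cold-stored group with Ctl or WI, GSTP1 differed by -0.50 to +0.11. A further row described as pig GST P (TC591968), no member by the rule, had means of 5.57 in Ctl-C and 3.96 in WI+CS6h-C, a difference of -1.61 (SE 0.66, adjusted p in limma 0.171). Over the other 7 such comparisons TC591968 differed by -1.21 to -0.19, none called.

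**Figure D3:**
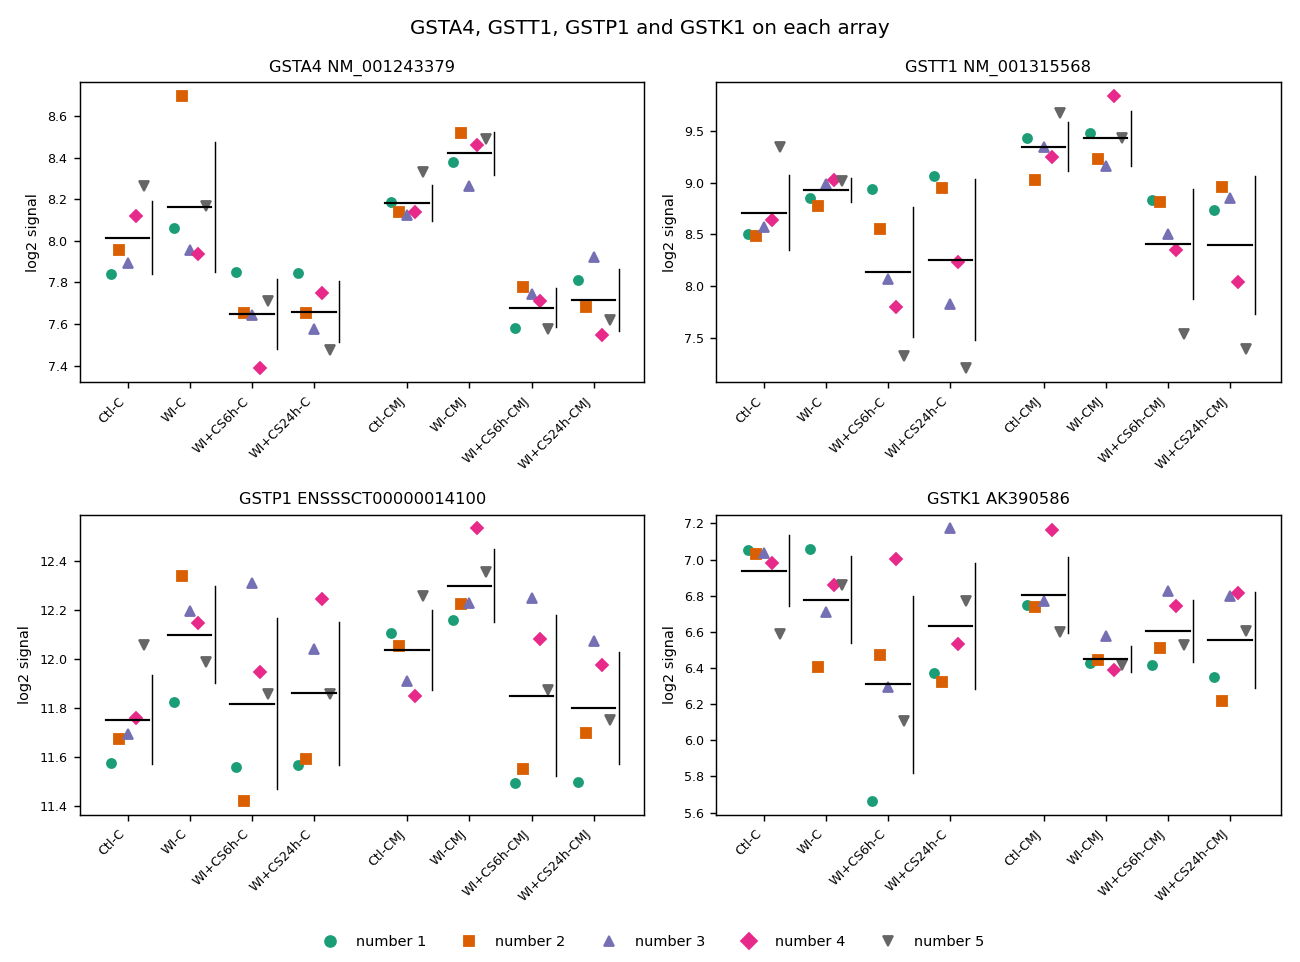
Log2 signal (y axis) of GSTA4, GSTT1, GSTP1 and GSTK1 on each array, by group (x axis), with symbols for the sample number, black lines for the group mean and bars of 1 SD. GSTA4 and GSTT1 of cold-stored CMJ lie below all Ctl and WI arrays of that tissue, and GSTT1 of cold-stored cortex spreads from 7.21 to 9.06.

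GSTK1 encodes the kappa class enzyme of mitochondria and peroxisomes. In WI+CS6h-C it read 5.66, 6.47, 6.29, 7.01 and 6.11, against 7.05, 7.03, 7.04, 6.98 and 6.59 in Ctl-C. Number 4 reached the Ctl level, and the difference of -0.63 had an adjusted p in limma of 0.0917. It was called when number 4 of WI+CS6h-C was left out, and with quantile normalization within each group (-0.75, adjusted p 0.024). At the CMJ, the WI arrays (6.39 to 6.58) lay below the Ctl arrays (6.60 to 7.16), the only member apart in that comparison, where 3.9% of all identifiers were. That difference was -0.35 with an adjusted p in limma of 0.205. GSTO1, the omega class enzyme that also reduces dehydroascorbate, differed by -0.07 to +0.09 between cold-stored groups and Ctl or WI, with 95% intervals from -0.33 to 0.37. Its group means ran from 14.38 in WI-CMJ to 14.65 in WI-C, with SDs up to 0.29.

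MGST1 encodes the abundant microsomal transferase and peroxidase of the endoplasmic reticulum and mitochondrial outer membrane. As the mean of its 7 probes it differed by -0.06 to +0.05 between cold-stored groups and Ctl or WI (95% intervals from -0.34 to 0.32), and its group means ran from 12.68 in WI-CMJ to 12.88 in Ctl-C. Its probes did not behave alike. The stretches below are shown because these probes read nearly the same site, and the capitals mark the bases at which they differ.
MGST1 A_72_P691959, first stretch: agccgaggaattaaCatagagaaagcctca
MGST1 A_72_P035861, first stretch: agccgaggaattaaGatagagaaagcctca
MGST1 A_72_P691959, second stretch: tgaataataatgtcacTcatatccttta
MGST1 A_72_P035861, second stretch: tgaataataatgtcacCcatatccttta
Of 60 aligned positions 57 were identical, with 2 mismatches and 1 gap. A_72_P691959 gave 12.82, 12.97, 12.48, 13.20 and 12.78 in Ctl-C, against 12.63, 12.41, 12.33, 12.23 and 12.13 in WI+CS6h-C and 12.47, 12.48, 12.20, 12.33 and 12.17 in WI+CS24h-C. The cold-stored arrays lay low, with a small overlap with number 3 of Ctl-C. At the CMJ, Ctl gave 12.59, 12.83, 12.85, 12.74 and 12.32, and WI+CS24h gave 12.36, 12.39, 11.85, 12.14 and 12.15.

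The probe A_72_P691959 fell against Ctl-C by 0.50 at 6 h and by 0.52 at 24 h (adjusted p in limma 0.0326 and 0.0362). Over the 8 comparisons of a cold-stored group with Ctl or WI it differed by -0.52 to -0.46. A_72_P035861, its near twin, differed by +0.09 to +0.25. The other 6 MGST1 probes together differed by -0.09 to +0.25, and none was called. The data do not say which of these readings follows the transcript, and the bases at which the probes differ were not compared with the pigs' own sequence.

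**Figure D4:**
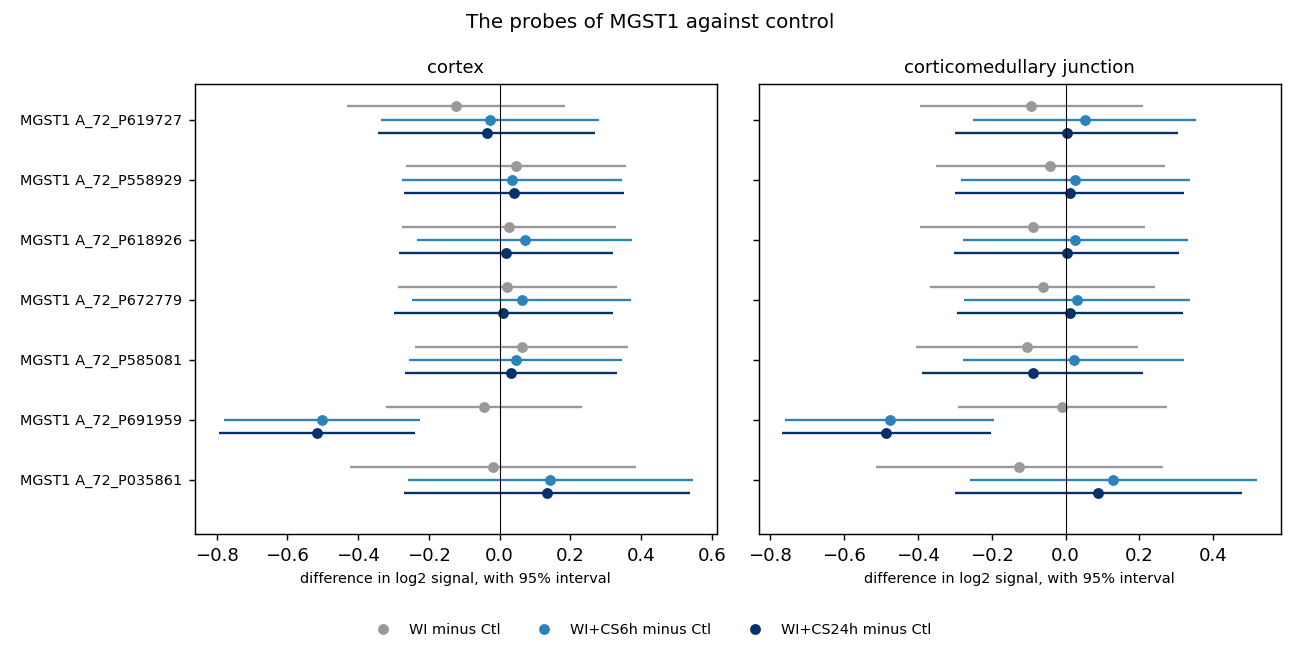
Log2 difference from the control group (x axis) of the 7 MGST1 probes (y axis) for WI, WI+CS6h and WI+CS24h, with cortex and CMJ in separate panels and lines for the 95% confidence interval. In cold-stored kidneys A_72_P691959 lies at -0.52 to -0.48 and the other 6 probes stay between -0.09 and +0.14, while in WI all 7 lie between -0.12 and +0.06.

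MGST3 encodes a membrane enzyme that conjugates leukotriene A4 and reduces lipid hydroperoxides. Its 2 identifiers, with a Pearson r of 0.93 over the 40 arrays, differed by -0.03 to +0.26 (ENSSSCT00000006933) and by -0.11 to +0.30 (NM_001044556) between cold-stored groups and Ctl or WI. The 95% intervals ran from -0.37 to 0.60 over both, and none was called. The smallest adjusted p in limma was 0.226. Group means ran from 12.70 to 12.97 for the first and from 13.17 to 13.60 for the second, with SDs up to 0.36.

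Warm ischemia alone called no member in either tissue. Of all identifiers, 0.0946% were called in WI-C against Ctl-C and 0.687% in WI-CMJ against Ctl-CMJ. By limma's unadjusted p under 0.05, 1 member (GSTP1) of 11 and 1758 of all identifiers passed in the cortex, and 2 members and 4410 at the CMJ. Between 24 h and 6 h of storage no member was called, where 0% of all identifiers were called in the cortex and 0.00278% at the CMJ. At the unadjusted level 0 members passed in both tissues, with 1119 and 1238 of all identifiers. The arrays therefore showed the GST differences at 6 h already, with no further difference detectable at 24 h.

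Groups apart gave a further view that does not depend on the size limit. In cold-stored cortex 2 members were apart from Ctl-C at 6 h, where 5.23% of all identifiers were, and 2 at 24 h (5.73%). Only GSTA4 was apart from WI-C among members, at 6 h (3.27% of all) and at 24 h (3.38%). At the CMJ, 4 members were apart from Ctl at 6 h (5.96% of all) and 4 at 24 h (5.45%), both GSTA2 identifiers, GSTA4 and GSTT1. From WI-CMJ, GSTA4 and GSTT1 were apart at 6 h (5.91% of all), and at 24 h GSTP1 as well (4.58%).

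The 2 tissues were compared in a limma fit of all arrays. No member was called between CMJ and cortex in Ctl (0.312% of all identifiers), WI (0.671%), WI+CS6h (0.0807%) or WI+CS24h (0%). With the replicate block that pairs tissues by number, GSTT1 was called higher in Ctl-CMJ than in Ctl-C, at +0.63 (adjusted p in limma 0.0381, against 0.808 without it), and it was higher at the CMJ in each of the 5 numbers. The arrays of Ctl do not show such a pairing, as same-numbered arrays of the 2 tissues correlated at -0.13 to 0.08. Unadjusted, 2, 1, 0 and 0 members passed, with 2190, 2579, 3440 and 1439 of all. In WI, GSTT1 and both MGST3 identifiers were higher and GSTO1 lower in the CMJ with the groups apart, where 3.17% of all identifiers were apart. No tissue-by-treatment interaction was called, for any member or for any other identifier (0% in each), and 0 members passed unadjusted in the 3 terms, where 710, 1856 and 928 of all did.

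The genes around the transferases were taken from lists of the glutathione pathway. ABCC2, the apical pump for glutathione conjugates, rose in all cold-stored groups. Its log2 signal was 10.86, 10.89, 10.85, 11.05 and 11.18 in Ctl-C, and 11.78, 11.43, 11.87, 11.60 and 11.54 in WI+CS6h-C. At the CMJ it was 10.48, 10.47, 10.70, 10.27 and 10.17 in Ctl, 10.50, 10.61, 10.45, 10.38 and 10.46 in WI, and 11.61, 11.58, 11.46, 11.23 and 11.10 in WI+CS6h. All cold-stored arrays lay above all Ctl and WI arrays of their tissue. Against Ctl it rose by 0.68 and 0.60 in the cortex (adjusted p in limma 0.00123 and 0.0036) and by 0.98 and 0.94 at the CMJ (0.000205 and 0.000293). ABCC2 of Ctl-CMJ differed from Ctl-C by -0.55 (adjusted p in limma 0.022).

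ANPEP, a surface peptidase of the proximal tubule brush border that trims glutathione conjugates, rose against Ctl by 1.01 and 0.96 in the cortex (adjusted p in limma 0.00963 and 0.0165) and by 0.99 in WI+CS6h-CMJ (0.0312). In WI+CS24h-CMJ it differed by +0.85 (0.0618). Ctl-C arrays of ANPEP lay between 10.97 and 11.10, and WI+CS6h-C arrays gave 12.49, 12.41, 11.75, 11.64 and 11.99, with numbers 1 and 2 highest. GGT1, the gamma-glutamyltransferase that starts the breakdown of conjugates, rose in the cortex by 0.63 and 0.66 against Ctl (adjusted p in limma 0.0161 for both) and differed by +0.47 and +0.25 at the CMJ, not called. In WI, GGT1 already differed from Ctl by +0.34 in the cortex and +0.49 at the CMJ (0.939 and 0.106), not called. Against WI it differed after cold storage by +0.29 and +0.32 in the cortex and by -0.01 and -0.24 at the CMJ, not called either (0.360 to 0.981). Against WI, ANPEP was not called (0.0695 to 0.342).

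Counts over the lists were small. Of 11 found genes of glutathione synthesis and breakdown, out of 19 listed, 2, 2, 1 and 0 were called against Ctl in WI+CS6h-C, WI+CS24h-C, WI+CS6h-CMJ and WI+CS24h-CMJ, all higher. Of 3 found genes of conjugate export and the later mercapturate steps, out of 9 listed, 1 was called in each, ABCC2. None of 10 glutathione peroxidases and glutaredoxins, none of 9 other transferases and related enzymes and none of 10 genes listed with the regulators of GST genes (9 regulators and NQO1, a target) was called against Ctl. Over all identifiers the shares called in these comparisons were 4.02%, 2.5%, 3.19% and 3.65%, and at such shares nothing is read from a count of 0 in 9 or 10 genes. Among the regulators, NFE2L2, the transcription factor that drives many GST genes, differed by +0.07 to +0.23 between cold-stored groups and Ctl or WI (smallest adjusted p in limma 0.426). NQO1, the NFE2L2 target of the list, differed by -0.42 to -0.08 over the same comparisons.

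**Figure D5:**
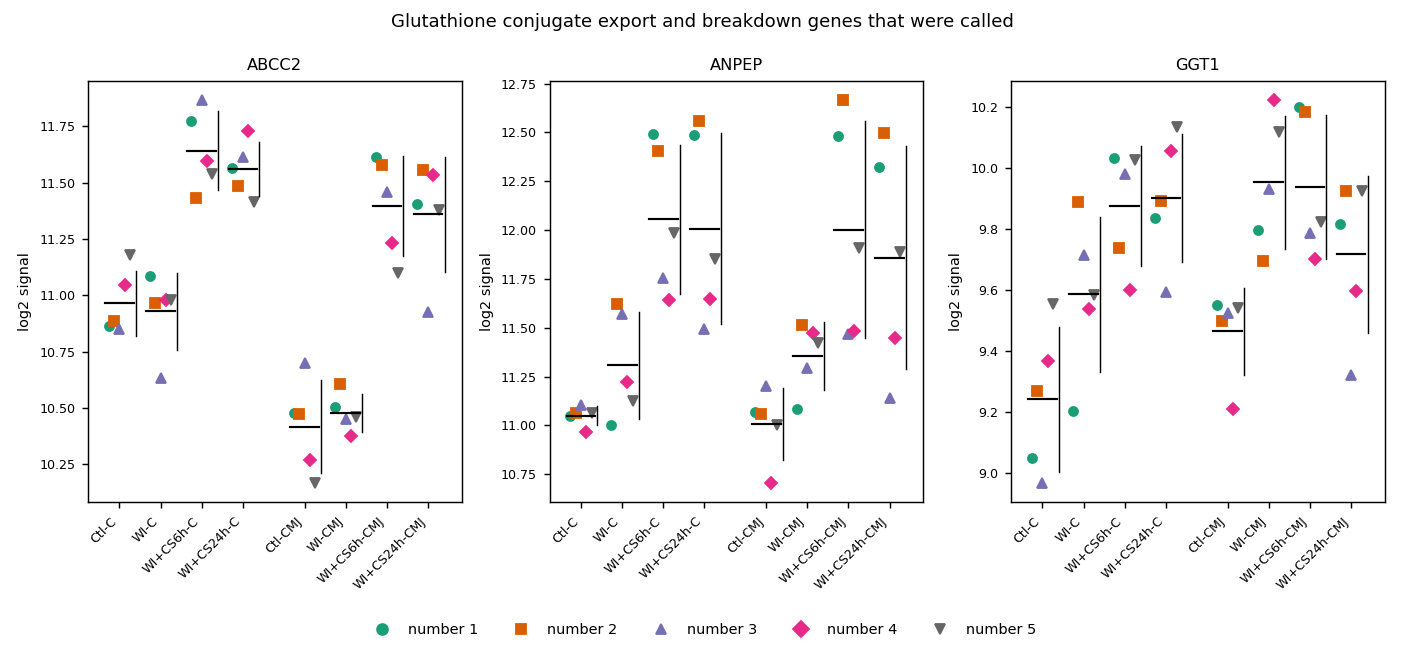
Log2 signal (y axis) of ABCC2, ANPEP and GGT1, the pathway genes that were called, on each array, by group (x axis), with symbols for the sample number, black lines for the group mean and bars of 1 SD. ABCC2 of cold-stored kidneys lies above all Ctl and WI arrays in both tissues, and those of ANPEP and GGT1 lie above all Ctl arrays in the cortex.

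The genes most like the called members were listed by Pearson r over the 40 arrays among identifiers with a symbol, as a description of arrays that share kidneys, slides and groups. For GSTA2 NM_213850 they were CYP39A1 (0.91), HPS6 (0.88), CELA2A (0.88), PEX6 (0.87) and CCL26 (0.87), and for KP735782 CELA2A (0.91), CYP39A1 (0.91), HPS6 (0.86), PTPN21 (0.86) and CCL26 (0.86). For GSTA4 they were SLA-DOA (0.91), RING1 (0.86), SCD5 (0.85), SLA-5 (0.85) and TMEM158 (0.84). For GSTT1 they were CYP2A19 (0.93), CXCR6 (0.92), PSMB9 (0.90), BST2 (0.90) and SLA-1 (0.89). In the RefSeq table, 2, 2, 3 and 2 of the 5 lie on the chromosome of GSTA1, which holds 10.2% of the 8190 identifiers placed there. GSTT1 itself lies on another chromosome, and the place of GSTA2 is not given. Both GSTA2 lists hold CYP39A1, HPS6, CELA2A and CCL26, so their counts are not separate. CYP39A1 is 55 genes from GSTA1, PEX6 112, RING1 310, SLA-DOA 317, PSMB9 322, SLA-5 457, SLA-1 458 and PTPN21 907. Between the members themselves, GSTA4 and GSTT1 had an r of 0.75, GSTA2 NM_213850 and GSTT1 0.69, and GSTA2 NM_213850 and GSTA4 0.65.

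The arrays lay on 10 slides of 4. Where a slide held arrays of both groups, the 2 GSTA2 identifiers and GSTA4 were lower in the cold-stored group on every such slide, with 2 or 4 slides per comparison, and NM_213850 differed there by -4.09 to -0.78. GSTT1 of the CMJ was also lower on each (-1.95 to -0.19). GSTA1 was higher on all such slides but 3, 1 each in WI+CS24h-C and WI+CS24h-CMJ against WI and in WI+CS24h-CMJ against Ctl.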

How the data were processed

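Total RNA (RNeasy Plus Mini with DNase, per the labels) was labelled with Cy3 by the Low Input Quick Amp kit and hybridised to single-color porcine 44k arrays. The authors deposited 1 intensity file per array, extracted with Agilent Feature Extraction 11.5.1.1, and a matrix of log2 values made with limma in R 2.15.2. The log2 values the authors deposited were within 1e-06 of the log2 median signal, quantile normalized over all arrays, for 99.98% of the values of 32153 identifiers with 1 spot, and served as an alternative only.

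Processed intensity of 43803 non-control spots was taken to log2. Outlier spots (10 to 85 per array) were left out, the 40 arrays were quantile normalized, and spots were averaged by identifier. A model with 1 term per group was fitted in limma 3.58.1 (R 4.3.3) to the 20 arrays of a tissue (35939 identifiers in C, 35938 in CMJ), and all 40 arrays (35934) for tissues and interactions. P-values were adjusted by Benjamini-Hochberg. The 4 groups of a fit share 1 estimate of the spread. The labels call the kidneys of a group independent, and 5 arrays per group limit the precision. Scripts were tested on simulated data. Figures were drawn with matplotlib 3.10.9.

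Members and lists were chosen with earlier results of these data known. Values by array are given for the members called and their close relatives, and genes most alike are the 5 with the highest Pearson r among identifiers with a symbol. Sequences are the array files' own. Marker lists covered proximal tubule, thick ascending limb and distal convoluted tubule, collecting duct, podocyte, endothelium, fibroblast, leukocyte, adipocyte and erythrocyte. Alternatives were other scalings and background corrections, a dim filter, the brightest probe, replicate and slide blocks, fits of 2 groups, and each array left out.

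Numbers were checked for pairing by the correlation of their deviations from group means. For the 2 storage times, which the labels tie to the same kidneys, it was 0.33 to 0.61 at the CMJ, each array matching its own number best, and -0.31 to 0.36 in the cortex. Between tissues it was 0.13 to 0.46 at 6 h, 0.14 to 0.48 at 24 h, 0.04 to 0.18 in WI and -0.13 to 0.08 in Ctl. Numbers do not pair kidneys across Ctl, WI and cold storage.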

Additional observations from a re-analysis of the deposited data

Results flagged for a closer look

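Of 88 groups of 5 arrays, 8 held an array far from the other 4, by the gap to its nearest neighbour over the range of the group (critical value 0.71). Chance gives about 1 such group in 20. Of these groups, 3 hold the low number 2 of WI for GSTA2: the ratio was 0.821 for NM_213850 in WI-C (8.71, next 10.92), 0.935 in WI-CMJ (8.33, next 11.12) and 0.877 for KP735782 in WI-CMJ (5.58, next 8.07). GSTA1 was high in number 2 of both tissues (9.68 and 9.43). The same number had the lowest HBB signal of WI, 3.56 in the cortex (others 3.74 to 4.61) and 2.19 at the CMJ (others 3.75 to 4.62), and the highest mean over the leukocyte markers (5 found of 8 listed), 5.53 (others 4.89 to 5.42) and 5.42 (others 5.09 to 5.31). Their part in the GST values was not tested. In Ctl-C, number 5 stood apart for 3 members: GSTT1 was high (ratio 0.813, 9.34 with the next at 8.64), GSTK1 low (0.839, 6.59 with the next at 6.98) and MGST3 NM_001044556 high (0.889, 13.33 with the next at 13.15). GSTK1 was high in number 3 of WI-CMJ (0.723, 6.58 with the next at 6.44). MGST1 was low in number 5 of WI+CS6h-CMJ (0.764, 12.27 with the next at 12.79).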

How the results depend on the processing

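Over the alternatives, none of the 21 called differences of members reversed, and 34 values lost their call outside the fits that left out an array. GSTA2 kept its calls on leaving out any array. KP735782 shrank to -1.13 to -0.91 with normexp, and NM_213850 ranged from -3.10 to -1.94 over all alternatives. The number of member identifiers called moved by over 1.5 times under the slide block, in fits of the groups compared alone and, once, under the replicate block, and by 1 in comparisons under other settings. With slide as a fixed term it was 0 in WI+CS24h-C against Ctl-C, 0 in both cold-stored cortex groups against WI-C, 1 against Ctl-CMJ at 24 h and 1 against WI-CMJ at 6 h. In fits of the groups compared alone it was 0 in both cold-stored cortex groups against WI-C and 1 in both CMJ groups against WI-CMJ, the 1 being GSTA4. Fits of the groups compared alone hold fewer arrays, and the cause of the lost calls was not tested. With arrays left out, the count was 2 to 3 in WI+CS6h-C against Ctl-C, 2 to 3 at 6 h and 2 to 4 at 24 h against Ctl-CMJ, 3 to 4 at 6 h and 3 to 5 at 24 h against WI-CMJ, and as reported elsewhere. GSTT1 was added without number 2 of WI+CS24h-CMJ, GSTA4 and GSTT1 without number 3, and GSTP1 against WI-CMJ without number 3. GSTA4 at 6 h against Ctl-CMJ fell under the size limit in 5 alternatives, with an adjusted p of at most 0.00666, and against WI-CMJ only with normexp (-0.46 and -0.45). The GSTT1 calls against WI-CMJ were lost in 6 and 3 of 11 alternatives, 1 chosen after seeing the data, without number 2 of WI in both tissues (adjusted p 0.065 and 0.0625).

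With the replicate block that pairs samples of the same number, 1 member was called in Ctl-CMJ against Ctl-C, GSTT1 at +0.63 (adjusted p in limma 0.0381, against 0.808 without it), and the GSTT1 call at 6 h against WI-CMJ was lost at the threshold itself. In Ctl, same-numbered arrays of the tissues correlated at only -0.13 to 0.08. The block added a call of GSTP1 in WI+CS24h-CMJ against WI-CMJ (adjusted p 0.0455) and changed no other call of a member. Quantile normalization within each group moved the median of all identifiers by up to 0.239 (the WI+CS24h interaction). Slide as a random block, with a correlation of 0.109 in C and 0.176 in CMJ, was also added after seeing the data.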

Other observations

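Besides the members, 15 identifiers carried glutathione S-transferase in their description, among them MGST2 (KP735781), GSTZ1, a mu class gene (LOC780435) and the A1-like and A4-like neighbours of GSTA1 (LOC100526118 and LOC100510917). None was called in any comparison within a tissue. Rows of sequence clusters described as theta 1 (TC561648, well above background on 4 arrays) and kappa 1 (TC538798, on 40) differed between cold-stored groups and Ctl by -0.96 to -0.06 and by -0.12 to +0.35. The cluster row described as pig GST alpha M14 (TC590192), well above background on 40 arrays, had a mean log2 signal of 5.68. The A1-like identifier (XM_003128792) differed from Ctl by +0.56 and +0.45 in cold-stored cortex and by +0.44 and +0.34 at the CMJ (adjusted p in limma 0.348 to 0.660).

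Among the markers of other cells, calls of cold-stored groups against Ctl were few. TRPM6 of the distal convoluted tubule was lower in WI+CS6h-C (-0.72), WI+CS24h-C (-0.74) and WI+CS24h-CMJ (-0.56). SCNN1G, a sodium channel subunit of the collecting duct, was higher in WI+CS6h-C (0.65), WI+CS6h-CMJ (0.66) and WI+CS24h-CMJ (0.85). KDR of endothelium was higher in both cold-stored CMJ groups (0.59 and 0.65), and LPL of adipocytes in WI+CS6h-C (1.06). Against WI, AQP3 of the collecting duct was lower in all 4 cold-stored groups (-0.63 and -0.65 in the cortex, -0.88 at the CMJ at both times), opposite to SCNN1G, which was higher at the CMJ (0.79 and 0.97), and PVALB of the distal convoluted tubule was higher in WI+CS6h-C (1.49). Podocyte, fibroblast, leukocyte and erythrocyte lists gave no call against Ctl or WI. The mean log2 signal of podocyte markers was 5.79 to 6.20 in WI+CS6h-C, above the 5.54 to 5.77 of Ctl-C. In WI+CS24h-C it was 5.45 to 6.13, and at the CMJ the cold-stored groups overlapped Ctl. The mean log2 signal of erythrocyte markers was 9.36 to 10.19 in WI-C, 8.03 to 9.30 in Ctl-C and 7.80 to 10.85 in cold-stored cortex. It rests on HBB, which was well above background on 24 of 40 arrays, and on SLC25A37, which was on all 40. The part of these markers of other cells in the GST values was not tested.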
